A study of Mus musculus with 9 samples.

Results

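The heat shock and unfolded protein genes described here are 33 mouse genes listed by symbol, with earlier results of these data known. They are 12 genes of the cytosolic heat shock response and 21 genes of the endoplasmic reticulum (ER) and its stress response. All 33 were found among the 22527 symbols of the table, and none stood on more than 1 line. The values come from ribosome-bound RNA of 3 fat depots, each with 3 libraries (numbered 1 to 3): brown fat (BAT), inguinal white fat (iWAT) and epididymal white fat (eWAT). All mice are labelled wild type C57BL/6 and were 8 weeks old; no treatment is named. Ribosomes were pulled down from frozen tissue with an antibody against GFP, ribosomal RNA was depleted and single-end libraries were sequenced. The deposited values carry the name Adiponectin TRAP, but the labels list no transgene and do not state which cells carried a GFP-tagged ribosome. Nothing in the sources used here says whether the libraries of a depot came from separate mice. Levels are FPKM (fragments per kilobase of transcript, scaled to each library's mapped fragments), and differences are on the log2(FPKM + 1) scale, which understates changes of low genes.

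Chaperones hold unfolded or newly made proteins until they fold. In the cytosol, heat and other proteotoxic stress release the transcription factor HSF1, which switches on inducible chaperones such as Hspa1a, Dnajb1 and Hsp90aa1, while Hspa8 and Hsp90ab1 are made constantly. In the ER, the sensors IRE1 (gene Ern1), ATF6 and PERK (gene Eif2ak3) detect unfolded secretory proteins: IRE1 splices the Xbp1 mRNA, ATF6 is cut to release a transcription factor, and PERK slows translation while favouring ATF4, and with it Ddit3 (CHOP) and Trib3. Adipocytes secrete large amounts of disulfide-bonded proteins such as adiponectin, which fold in the ER.

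Promoter sequences are shown first because several members share response elements by which these pathways are known to act. They are RefSeq sequences (GRCm38.p6 table, 250 bases before to 50 bases after each start; 27 of the 33 members had an entry), placed in mm9 by exact match and read on the gene's strand. The ER stress element was searched on both strands as CCAAT and CCACG with 9 bases of any kind between them. It was present in 6 of the 27 members and in 0.137% of 27025 genes with promoters of that length. The matches are in capitals. The Calr sequence and the second one of Hsp90b1 hold the reverse-strand form.
Hspa5, chr2:34627540-34627568 (+): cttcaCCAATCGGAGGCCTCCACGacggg
Hsp90b1, chr10:86168378-86168406 (−): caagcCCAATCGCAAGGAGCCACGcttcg
Hsp90b1, chr10:86168273-86168301 (−): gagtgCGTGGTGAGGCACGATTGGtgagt
Calr, chr8:87370969-87370997 (−): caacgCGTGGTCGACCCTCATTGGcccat
Canx, chr11:50139297-50139325 (−): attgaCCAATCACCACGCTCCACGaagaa
Pdia6, chr12:17273292-17273320 (+): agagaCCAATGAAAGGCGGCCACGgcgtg
Dnajc3, chr14:119337044-119337072 (+): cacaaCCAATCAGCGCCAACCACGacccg

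The next pair is shown because Hspa1a and Hspa1b, neighbours on chromosome 17, can hardly be told apart by sequence. Their promoter windows differ at 4 of 300 bases and their coding sequences are 99.4% identical, so how the authors' counting divided shared reads between them is uncertain. Both promoters carry the same 100 bases, in which the heat shock core GAANNTTC is in capitals.
Hspa1a, chr17:35109152-35109251 (−): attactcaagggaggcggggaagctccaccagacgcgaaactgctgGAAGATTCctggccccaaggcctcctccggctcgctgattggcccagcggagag
Hspa1b, chr17:35096234-35096333 (−): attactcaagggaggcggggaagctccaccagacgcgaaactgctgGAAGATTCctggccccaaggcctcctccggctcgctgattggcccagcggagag
That core reads the same on both strands, and was present in 7 of the 27 members (Hspa1a, Hspa1b, Hsph1, Hspb1, Hspb8, Bag3 and Dnaja1) and in 9.04% of genes. The longer heat shock element, GAA, TTC and GAA with 2 bases of any kind between each, contains the core. It matched Hsph1 among the members and 0.662% of genes. The ATF4 element TGATGNAA matched Herpud1 and Trib3, against 4.51% of genes. In Herpud1 it stood in the reverse-strand form 112 bases before the start.
Herpud1, chr8:96910212-96910229 (+): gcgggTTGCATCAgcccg

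The libraries differed in ways that touch these genes. Estimated depth was 11.1 to 21.2 M reads in BAT and 16.2 M in eWAT 1, but 2.92 to 4.66 M in the other 5 libraries. Every BAT library was thus deeper than every iWAT library, and depth and depot cannot be told apart in that comparison. The tissue field of BAT 3 names inguinal fat, but its title names BAT and its Ucp1 level was 3054 FPKM, against 2434 and 2626 FPKM in the other BAT libraries and at most 3.38 FPKM in white fat. Across tested genes, iWAT 1 correlated at 0.945 to 0.963 with the eWAT libraries and at 0.899 and 0.934 with iWAT 2 and iWAT 3. The summed level of 7 pan-adipocyte markers was 24808 to 29811 FPKM in BAT, 31373 to 48480 in iWAT and 42450 to 59219 in eWAT. Summed markers of macrophages (9 genes) reached at most 14.6 FPKM and those of endothelium (7 genes) at most 4.48 FPKM. Epithelial and skin markers (10 genes) summed to 29.0 to 58.1 FPKM in BAT, 183 to 507 in iWAT and 72.1 to 249 in eWAT. Skeletal muscle markers (11 genes) summed to 63.3 to 155 FPKM in BAT, 1832 to 2520 in iWAT and 228 to 1310 in eWAT. No gene of these lists was at 0 in all libraries. In RNA pulled down from whole tissue, fewer cells of a type and less RNA per cell cannot be told apart.

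Of the 12 cytosolic members, 5 were lower in BAT than in iWAT, by 2.90-fold to 6.77-fold on the log2(FPKM + 1) scale: the inducible chaperones Hspa1a, Hspa1b, Hsp90aa1 and Dnajb1 and the transcription factor Hsf1. Hspb1 was higher and the other 6 were not called. The constitutive chaperones Hspa8 and Hsp90ab1 did not pass the test in either comparison with BAT. Of the 20 tested ER members, BAT had 5 higher and 6 lower against iWAT, and 1 higher and 5 lower against eWAT. Against iWAT, 50% of cytosolic and 55% of tested ER members were called, where 57.5% of all tested genes were. Against eWAT the shares were 8.33% and 30%, where 33.7% of all tested genes were called. Hspa1a, Hsp90b1, Pdia4 and P4hb were called lower in BAT than in both white depots, and Dnajb9 was called higher than in both. For Hspa1a the BAT and eWAT libraries overlapped. Comparing the white depots, no member passed the test.

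**Figure D1:**
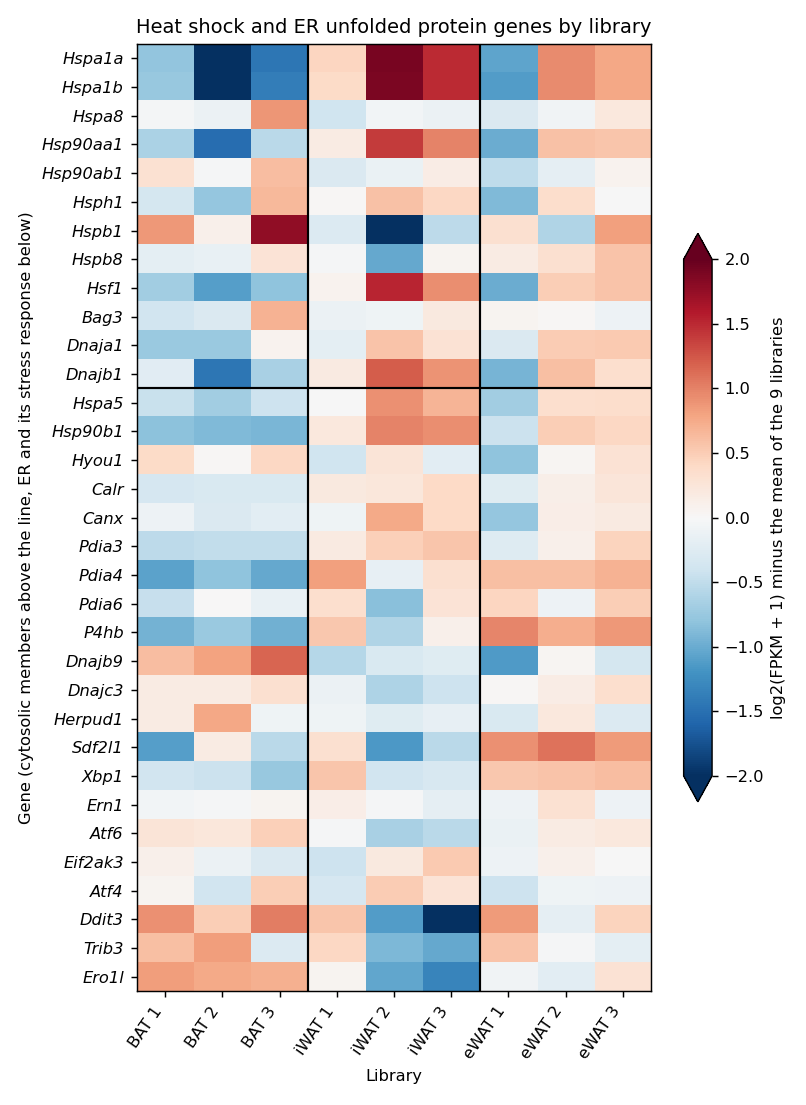
Level of each of the 33 genes (rows) in each library (columns), as log2(FPKM + 1) minus the gene's mean over the 9 libraries, with colours saturating at -2 and 2; the horizontal line divides the 12 cytosolic members from the 21 ER members. Hspa1a, Hspa1b, Hsp90aa1, Hsf1 and Dnajb1 are blue in the 3 BAT libraries and in eWAT 1 and red in the other 5 libraries, whereas Pdia4, P4hb and Sdf2l1 are red in all 3 eWAT libraries.

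In counts, 6 of the 32 tested members were higher and 11 were lower in BAT than in iWAT (limma, Benjamini-Hochberg adjusted p under 0.05 over 10374 tested genes), where 57.5% of all tested genes were called, 34.5% higher and 22.9% lower. The members' share called, 53.1%, was near that background, and their median difference was -0.16 against 0.23 for all tested genes. Against eWAT, 1 member was higher and 6 were lower in BAT, a share of 21.9% where 33.7% of all tested genes were called. Counting instead members whose libraries did not overlap, 6 were higher and 13 lower in BAT than in iWAT, where 65.7% of tested genes did not overlap, and 3 were higher and 7 lower than in eWAT, where 54.6% did not. With quantile normalization, which moves the median of all genes in BAT against iWAT from 0.23 to 0.04, the members' counts were 4 higher and 14 lower. The 2 comparisons share the BAT libraries and are not independent. Ern1, the gene of the sensor IRE1, was too low to test, at 0.0841 to 0.522 FPKM.

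**Figure D2:**
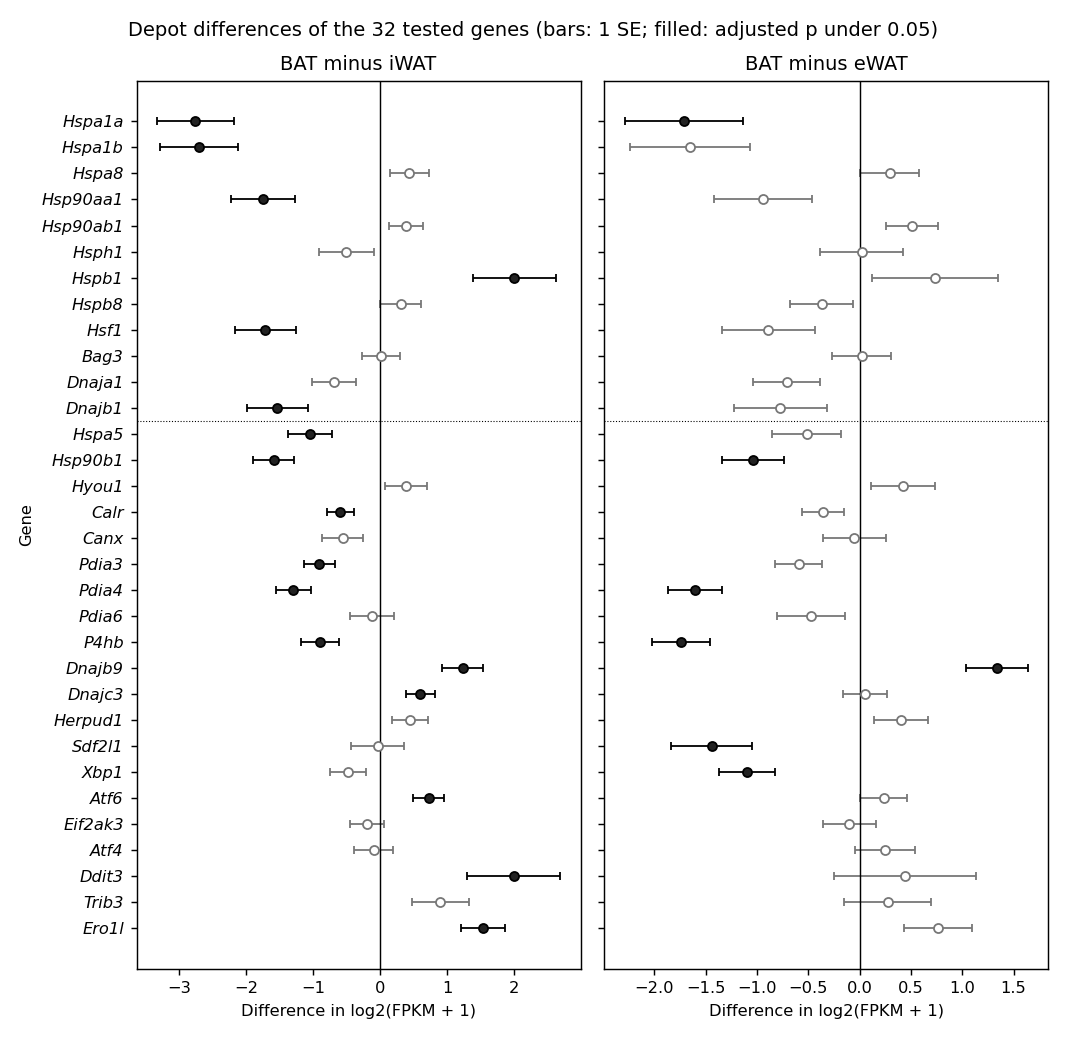
Difference in log2(FPKM + 1) between BAT and iWAT (left) and between BAT and eWAT (right) for the 32 tested genes; points are estimates from 3 libraries per depot, bars are 1 SE, and filled points have an adjusted p under 0.05. The dotted line divides cytosolic from ER members; Hspa1a lies at -2.76 on the left and -1.71 on the right, and Dnajb9 at 1.23 and 1.34.

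Hspa1a, the inducible cytosolic Hsp70 (chr17:35106144-35109069 in mm9), was at 39.3, 13.9 and 24.6 FPKM in BAT 1 to 3. Levels in iWAT 1 to 3 were 92.7, 258 and 195 FPKM, and those in eWAT 1 to 3 were 32.7, 134 and 118 FPKM. The BAT and iWAT libraries did not overlap, and eWAT 1 lay within the BAT range while eWAT 2 and 3 lay within the iWAT range. The difference between BAT and iWAT was -2.76 ± 0.57 (SE; limma adjusted p = 0.00288), and that between BAT and eWAT was -1.71 ± 0.57 (adjusted p = 0.0418). The second call was lost when BAT 2, BAT 3, iWAT 3, eWAT 2 or eWAT 3 was left out. It was also lost without the filter on low genes (limma adjusted p = 0.103). Without both eWAT 2 and eWAT 3 the difference was -0.44. Its near-copy Hspa1b kept a ratio to Hspa1a of 1.03 to 1.13 in all libraries. For Hspa1b the difference between BAT and iWAT was -2.70 ± 0.59 (limma adjusted p = 0.00358). Against eWAT it was -1.65 ± 0.59 with an adjusted p of 0.0523, or 0.0452 with the replicate number as a block.

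Hsf1, the transcription factor that drives the response, showed the same division of libraries, with eWAT 1 beside BAT. It was at 13.5, 9.93 and 12.3 FPKM in BAT, 23.7, 66.5 and 43.6 in iWAT, and 10.7, 32 and 33.6 in eWAT. BAT was lower than iWAT by -1.71 ± 0.45 on the log2 scale (limma adjusted p = 0.00939), with no overlap. Dnajb1, the Hsp40 partner that stimulates the Hsp70 ATPase, was at 34.8, 14.4 and 25.6 FPKM in BAT, 46.2, 95.9 and 77.2 in iWAT, and 20.9, 62.3 and 51.8 in eWAT. Its difference between BAT and iWAT was -1.53 ± 0.45 (limma adjusted p = 0.0152), a call lost without BAT 2 or without iWAT 2. Neither gene passed the test against eWAT, at -0.89 ± 0.45 for Hsf1 (limma adjusted p = 0.15) and -0.77 ± 0.45 for Dnajb1 (adjusted p = 0.202). With eWAT 1 left out both did, at -1.40 (adjusted p = 0.0170) and -1.24 (adjusted p = 0.0340).

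The cytosolic Hsp90 pair parted ways. Hsp90aa1, the stress-inducible form, was at 113, 60.0 and 120 FPKM in BAT, 196, 462 and 350 in iWAT, and 87.1, 261 and 256 in eWAT. Hsp90ab1, the constitutive form, was at 343, 271 and 426 FPKM in BAT, 227, 253 and 305 in iWAT, and 194, 244 and 290 in eWAT. Hsp90aa1 was lower in BAT than in iWAT by -1.75 ± 0.48 (limma adjusted p = 0.0105), whereas Hsp90ab1 differed by 0.39 ± 0.25 (adjusted p = 0.202) with overlapping libraries. With the epithelial covariate described below, Hsp90ab1 was called higher in BAT than in eWAT, at 0.95 (limma adjusted p = 0.0410). The ratio of Hsp90aa1 to Hsp90ab1 was 0.221 to 0.328 in BAT, 0.863 to 1.83 in iWAT and 0.448 to 1.07 in eWAT, with no overlap between BAT and either white depot. By mean FPKM, Hsp90ab1 was the highest of the 33 genes in BAT (347 ± 77.3, SD, n = 3) and in eWAT (243 ± 47.7), and Hsp90aa1 in iWAT (336 ± 134); in both white depots the ranges of the 2 genes overlapped.

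The Hsp70 family divided likewise. Hspa8, the constitutive cytosolic Hsp70, was at 202, 191 and 379 FPKM in BAT, 157, 198 and 190 in iWAT, and 169, 196 and 238 in eWAT, with all 3 depots overlapping. Its differences were 0.44 ± 0.29 between BAT and iWAT (limma adjusted p = 0.214) and 0.29 ± 0.29 between BAT and eWAT (adjusted p = 0.446). The ratio of Hspa1a to Hspa8 was accordingly 0.0648 to 0.195 in BAT and 0.592 to 1.31 in iWAT. In eWAT it was 0.193 in library 1 and 0.496 and 0.686 in the other two. The coding sequences of Hspa1a and Hspa8 are 73.9% identical and those of Hsp90aa1 and Hsp90ab1 75.6%.

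Hspb1, a small heat shock protein that binds unfolding proteins without ATP, was the exception among cytosolic members. It was at 92.7, 54.0 and 175 FPKM in BAT, 41.7, 8.25 and 34.6 in iWAT, and 63.3, 32.7 and 89.4 in eWAT. BAT was higher than iWAT by 2.0 ± 0.61 (limma adjusted p = 0.0180) with no overlap, but the call was lost without BAT 3 or without iWAT 2, the highest and the lowest library, and without the filter on low genes (adjusted p = 0.0509). The difference was 0.90 with the epithelial covariate (limma adjusted p = 0.682) and 1.93 with the depth covariate (adjusted p = 0.295). Against eWAT the libraries overlapped and the difference was 0.74 ± 0.61 (limma adjusted p = 0.365). The small heat shock protein Hspb8 (20.4 to 63.6 FPKM over all libraries), its partner in selective autophagy Bag3 (17.4 to 38.2), the Hsp110 nucleotide exchange factor Hsph1 (3.62 to 12.3) and the Hsp40 Dnaja1 (22.2 to 56.6) passed no test. Dnaja1 came closest, at -0.69 ± 0.33 between BAT and iWAT (limma adjusted p = 0.0917, or 0.0454 with the replicate number as a block).

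The division of libraries seen in these cytosolic genes, with eWAT 1 beside BAT, was also that of depth and of the epithelial marker level. Skeletal muscle markers divided likewise. They summed to 63.3 to 155 FPKM in BAT and 228 in eWAT 1, but 1106 to 2520 in the shallow libraries. Of the 33 members, 10 were lower in all 4 deep libraries (BAT 1 to 3 and eWAT 1) than in all 5 shallow ones, a share of 30.3% where 19.3% of all tested genes did so. They were Hspa1a, Hspa1b, Hsp90aa1, Hsf1, Dnajb1, Hspa5, Hsp90b1, Calr, Canx and Pdia3. No member was higher in all 4 deep libraries, against 9.22% of tested genes. The keratin Krt5, a marker of basal epithelial cells, was at 19.9, 10.3 and 15.8 FPKM in BAT, 68.3, 188 and 127 in iWAT, and 29.3, 87.3 and 79.7 in eWAT. The ratio of Hspa1a to Krt5 stayed between 1.12 and 1.97 in all 9 libraries, a 1.77-fold range, while Hspa1a itself ranged 18.6-fold. For Hsf1 the ratio to Krt5 was 0.675 to 0.961 in BAT, 0.344 to 0.353 in iWAT and 0.366 to 0.422 in eWAT. For Hsp90aa1 it was 5.65 to 7.61, 2.45 to 2.87 and 2.97 to 3.22, so that here BAT, with the lower level, had the higher ratio. Other members did not keep to Krt5: the ratio ranged 11.3-fold for Pdia4, 19.7-fold for P4hb and 40.4-fold for Dnajb9.

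**Figure D3:**
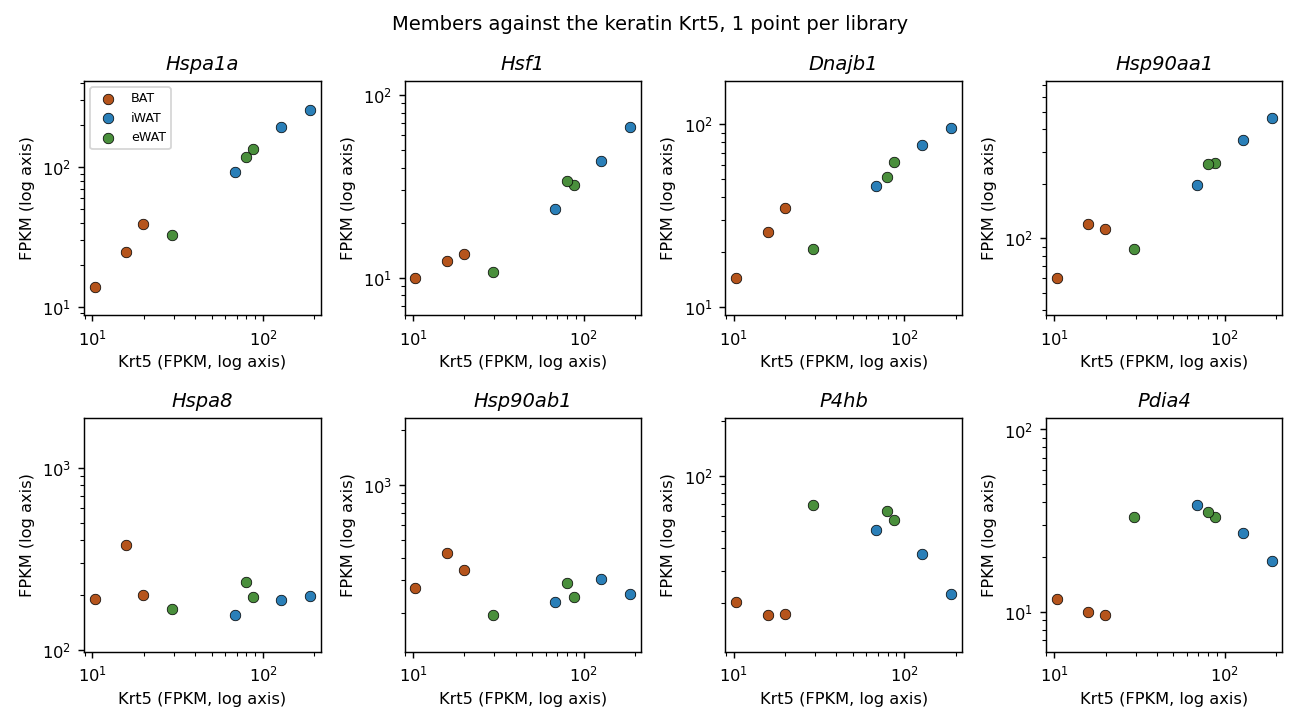
FPKM of 8 members against FPKM of the keratin Krt5, both on log axes, with 1 point per library coloured by depot (3 each). Hspa1a rises with Krt5 from 13.9 FPKM in BAT 2 to 258 FPKM in iWAT 2, Hspa8 and Hsp90ab1 stay within a 2.42-fold and a 2.19-fold range, and P4hb and Pdia4 separate BAT from eWAT 1.

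An epithelial covariate, chosen after seeing the data, was the median log2 level of 4 of the 10 epithelial and skin markers (Krt5, Krt14, Krt15 and Dsp). Of the 7 tested markers of that list, 6 were called lower and 1 higher in BAT than in iWAT. Against eWAT, 4 were called lower, 0 higher and 3 not called (57.1% called, where 33.7% of all tested genes were). With this covariate, the difference between BAT and iWAT turned positive for Hspa1a (0.52, limma adjusted p = 0.243), Hspa1b (0.65, adjusted p = 0.149), Hsp90aa1 (0.82, adjusted p = 0.159), Hsf1 (0.72, adjusted p = 0.195) and Dnajb1 (0.92, adjusted p = 0.0918). The difference did not pass the test for any of them. With estimated depth as a covariate it was -0.33 for Hspa1a (limma adjusted p = 0.711) and -0.01 for Hsf1 (adjusted p = 0.993). Of the 17 members called between BAT and iWAT, Dnajb9 was called with both covariates, Pdia4 and P4hb with the epithelial covariate, and the other 14 with neither. Of the 7 called between BAT and eWAT, 5 were called with both (Pdia4, P4hb, Dnajb9, Sdf2l1 and Xbp1), and Hspa1a and Hsp90b1 with neither. Against iWAT, a call lost with the depth covariate did not always mean a smaller difference. It was -1.50 for Pdia4 (-1.30 without the covariate), -1.27 for P4hb (-0.90), 0.88 for Atf6 (0.72) and 0.70 for Dnajc3 (0.60). The other lost calls had smaller differences, and those of Hsp90aa1, Dnajb1 and Hspa5 changed sign. Epithelial level, muscle level, depth and depot differ together between BAT and iWAT, so their parts in these differences cannot be told apart. No fit used the muscle level. Of 10 immediate early genes, 2 were called higher and 1 lower in BAT than in iWAT (30%, where 57.5% of all tested genes were called). Against eWAT, 3 were called higher and 0 lower in BAT (30%, where 33.7% of all tested genes were called). The sum of these genes was 230 to 420 FPKM in BAT, 92.3 to 197 in iWAT and 79.6 to 132 in eWAT.

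Hspa5 (BiP), the ER Hsp70, and Hsp90b1 (GRP94), the ER Hsp90, both carry the ER stress element shown above. Hspa5 was at 119, 99.5 and 122 FPKM in BAT, 161, 306 and 261 in iWAT, and 99.5, 206 and 206 in eWAT. Hsp90b1 was at 70.7, 67.5 and 65.8 FPKM in BAT, 145, 252 and 241 in iWAT, and 93.4, 176 and 168 in eWAT. In both genes BAT lay below iWAT without overlap, and eWAT 1 was the lowest eWAT library. Hspa5 differed between BAT and iWAT by -1.05 ± 0.34 (limma adjusted p = 0.0219), a call lost without BAT 1, BAT 2, iWAT 2 or iWAT 3, and turned to 0.60 with the epithelial covariate and 0.14 with the depth covariate. Hsp90b1 differed by -1.59 ± 0.30 from iWAT (limma adjusted p = 0.00172), or -0.24 with the epithelial covariate (adjusted p = 0.638). Against eWAT it differed by -1.04 ± 0.30 (adjusted p = 0.0232), a call lost when any BAT library, eWAT 2 or eWAT 3 was left out. The Hsp110-type exchange factor Hyou1, at 5.16 to 13.3 FPKM, was not called, at 0.39 ± 0.31 against iWAT (limma adjusted p = 0.297). It was called higher in BAT with either covariate. With the epithelial covariate the difference was 1.78 against iWAT (limma adjusted p = 0.0167) and 1.33 against eWAT (adjusted p = 0.00750). With the depth covariate it was 1.41 against iWAT (adjusted p = 0.0434) and 0.98 against eWAT (adjusted p = 0.0317).

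Calr and Canx are the lectin chaperones that hold glycoproteins, and Pdia3 is the disulfide isomerase that works with them. Calr was at 98.4, 101 and 102 FPKM in BAT, 144, 146 and 166 in iWAT, and 106, 136 and 147 in eWAT. Pdia3 was at 56.5, 57.8 and 57.7 FPKM in BAT, 92.6, 114 and 121 in iWAT, and 68.1, 87.2 and 111 in eWAT. Both had nearly equal levels in the 3 BAT libraries, below every white fat library. The difference between BAT and iWAT was -0.59 ± 0.21 for Calr (limma adjusted p = 0.0308, lost when any BAT library or iWAT 3 was left out) and -0.91 ± 0.23 for Pdia3 (adjusted p = 0.00773). With the epithelial covariate the differences were -0.18 for Calr (limma adjusted p = 0.714) and -0.24 for Pdia3 (adjusted p = 0.645), and with the depth covariate -0.20 (adjusted p = 0.748) and -0.37 (adjusted p = 0.541). Canx ranged from 41.4 FPKM in eWAT 1 to 121 FPKM in iWAT 2 and did not pass the test (BAT against iWAT -0.56 ± 0.31, limma adjusted p = 0.136).

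Pdia4 and P4hb, 2 disulfide isomerases of which P4hb is also the beta subunit of the collagen prolyl 4-hydroxylase, differed from the genes above in eWAT 1. Pdia4 (chr6:47746141-47763511) was at 9.67, 11.8 and 10.1 FPKM in BAT, 38.8, 19.1 and 27.1 in iWAT, and 33.2, 33.1 and 35.4 in eWAT. P4hb (chr11:120421612-120434567) was at 17.5, 20.2 and 17.3 FPKM in BAT, 50.7, 22.4 and 37.0 in iWAT, and 68.8, 57.4 and 63.9 in eWAT. The deep library eWAT 1 was thus as high as its shallow partners, and for P4hb the highest of all. Pdia4 was lower in BAT than in eWAT by -1.60 ± 0.26 (limma adjusted p = 0.000944) and P4hb by -1.74 ± 0.28 (adjusted p = 0.000961). With eWAT 1 as the sole eWAT library, assumed to vary like the other groups, the differences were -1.57 (limma adjusted p = 0.0367) and -1.86 (adjusted p = 0.0251). Both calls held in all 22 alternatives, including the depth covariate and the epithelial covariate (Pdia4 -1.71 and -2.01, P4hb -1.94 and -2.31). Against iWAT the differences were -1.30 ± 0.26 for Pdia4 (limma adjusted p = 0.00230) and -0.90 ± 0.28 for P4hb (adjusted p = 0.0201). The P4hb call was lost without BAT 1, BAT 3 or iWAT 3, and with the depth covariate both calls were, at -1.50 for Pdia4 (adjusted p = 0.0551) and -1.27 for P4hb (adjusted p = 0.112). Markers of stromal progenitors and of white adipocytes were also lower in BAT. The 6 stromal markers summed to 5.89, 3.36 and 16.4 FPKM in BAT, 346, 78.9 and 210 in iWAT, and 165, 59.3 and 76.8 in eWAT. Only 2 of the 6 passed the filter on low genes, of which 1 was called lower in BAT than in iWAT and 2 lower than in eWAT. Within iWAT the stromal sum, Pdia4 and P4hb were all highest in library 1 and lowest in library 2, and in eWAT the stromal sum and P4hb were highest in library 1. The stromal sum peaked in iWAT, whereas Pdia4 and P4hb had higher means in eWAT. The 5 white adipocyte markers summed to 98.8, 199 and 260 FPKM in BAT, 5727, 1901 and 3575 in iWAT, and 10296, 6543 and 8054 in eWAT. Within each white depot their libraries had the order of P4hb. The part of either cell type in the differences was not tested. The third isomerase of this kind, Pdia6, at 34.5 to 87.9 FPKM, carries the ER stress element and passed no test.

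Dnajb9 (ERdj4), an ER-resident Hsp40 that works with BiP and restrains IRE1, was the member that was higher in BAT than in both white depots. It lies at chr12:45306884-45311055 and was at 30.2, 34.5 and 44.5 FPKM in BAT, 12.8, 15.5 and 16.2 in iWAT, and 8.34, 19.9 and 14.9 in eWAT. Every BAT library exceeded every white fat library. The differences were 1.23 ± 0.30 against iWAT (limma adjusted p = 0.00650) and 1.34 ± 0.30 against eWAT (adjusted p = 0.00670), and both calls held in every alternative (21 and 22 of them). Ero1l, the oxidase that supplies disulfide bonds to the isomerases, was at 6.46, 6.07 and 5.81 FPKM in BAT, 3.37, 1.03 and 0.677 in iWAT, and 2.98, 2.62 and 4.11 in eWAT. BAT again lay above every white fat library. Ero1l was higher in BAT than in iWAT by 1.53 ± 0.33 (limma adjusted p = 0.00355), but with the epithelial covariate the difference was 0.91 (adjusted p = 0.394), and with the depth covariate 1.30 (adjusted p = 0.184). Against eWAT it was 0.76 ± 0.33 and did not pass (adjusted p = 0.0999).

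**Figure D4:**
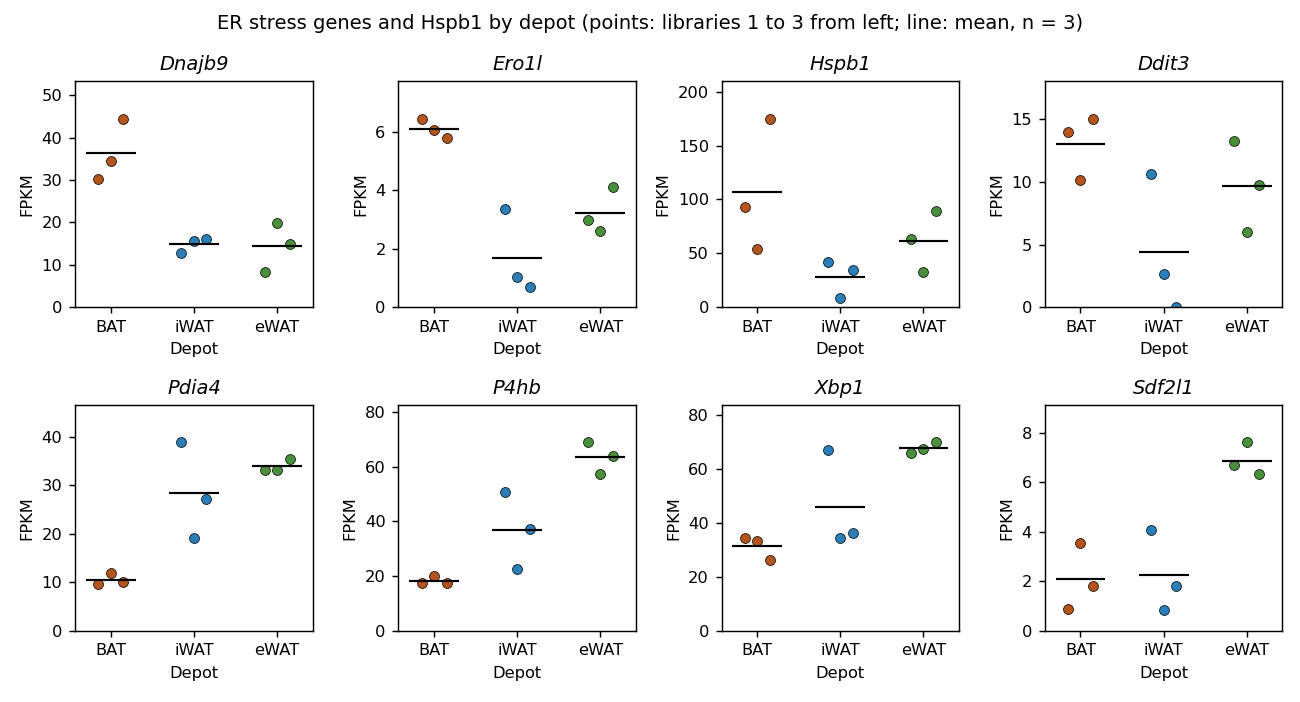
FPKM of 8 members in each library (points, libraries 1 to 3 from left) by depot, with the mean of 3 libraries as a line and linear axes from 0. Dnajb9 and Ero1l are higher in each BAT library than in any white fat library; Pdia4, P4hb, Xbp1 and Sdf2l1 are higher in each eWAT library, eWAT 1 included, than in any BAT library.

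Dnajc3 (p58IPK), another BiP co-chaperone, was at 10.4, 10.5 and 11.7 FPKM in BAT, 8.4, 5.64 and 6.66 in iWAT, and 9.35, 10.2 and 11.9 in eWAT. The 3 iWAT libraries were the lowest of the 9. BAT exceeded iWAT by 0.60 ± 0.22 (limma adjusted p = 0.0355, or 0.0527 with the replicate number as a block), and the call was lost in 13 of 21 alternatives, among them both other scalings and the removal of any BAT library, iWAT 2, iWAT 3 or eWAT 2. Sdf2l1, a component of the ER chaperone complex around BiP, was low, at 0.899, 3.56 and 1.81 FPKM in BAT, 4.09, 0.832 and 1.80 in iWAT, and 6.70, 7.62 and 6.34 in eWAT. All 3 eWAT libraries exceeded the other 6. BAT was lower than eWAT by -1.44 ± 0.40 (limma adjusted p = 0.0180). The call was lost without BAT 1, BAT 3 or eWAT 2, and without the filter on low genes (adjusted p = 0.0506). With eWAT 1 as the sole eWAT library the difference was -1.41. Herpud1, which takes part in ER-associated degradation, was at 25.4 to 54.7 FPKM and passed no test.

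Xbp1, the transcription factor whose mRNA IRE1 splices (chr11:5420662-5425896), was at 34.3, 33.1 and 26.2 FPKM in BAT, 67.0, 34.3 and 36.0 in iWAT, and 65.8, 67.4 and 69.7 in eWAT. Its level in iWAT 1 was that of eWAT, and in iWAT 2 and 3 it was close to BAT. BAT was lower than eWAT by -1.10 ± 0.27 (limma adjusted p = 0.0108), a call lost without BAT 3, and with eWAT 1 as the sole eWAT library the difference was -1.06 (adjusted p = 0.149). Gene-level values do not separate spliced from unspliced Xbp1. Of the sensors, Atf6 was at 2.75, 2.68 and 3.36 FPKM in BAT, 2.09, 1.00 and 1.15 in iWAT, and 1.87, 2.53 and 2.64 in eWAT. It was higher in BAT than in iWAT by 0.72 ± 0.23 (limma adjusted p = 0.0202), a call lost without BAT 1, BAT 3, iWAT 2 or iWAT 3 and with either covariate. Eif2ak3 (PERK), at 1.07 to 2.97 FPKM, passed no test.

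On the branch downstream of PERK, Atf4 was at 122, 90.1 and 166 FPKM in BAT, 93.4, 168 and 142 in iWAT, and 88.2, 111 and 110 in eWAT. All 3 depots overlapped and no comparison passed the test (BAT against iWAT -0.10 ± 0.29, limma adjusted p = 0.790). Ddit3 (CHOP), a pro-apoptotic ATF4 target, was at 14.0, 10.2 and 15.1 FPKM in BAT, 10.6 and 2.65 in iWAT 1 and 2, listed at 0 in iWAT 3, and 13.2, 6.01 and 9.79 in eWAT. BAT was called higher than iWAT, by 2.0 ± 0.69 (limma adjusted p = 0.0306), although iWAT 1 lay within the BAT range. The call was lost when any BAT library, iWAT 2 or iWAT 3 was left out, with quantile normalization, with a pseudocount of 0.1 and without the filter on low genes. With the epithelial covariate the difference was 0.15 (limma adjusted p = 0.952) and with the depth covariate 0.67 (adjusted p = 0.759). Ddit3 exons overlap those of Mars on the opposite strand, and no strand setting is given, so reads in the shared stretches cannot be told apart. Exons of the called members Hspa1a, Hsp90b1, Pdia3 and Pdia4 also overlap those of other annotated genes. The same holds for Hspa8, Dnaja1 and Pdia6. Trib3, a pseudokinase induced by CHOP and ATF4, was at 0.901 to 5.93 FPKM and differed between BAT and iWAT by 0.90 ± 0.42 (limma adjusted p = 0.0894, or 0.0302 with the replicate number as a block).

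Between the white depots, 0 members were called in either direction by limma, where 1.74% of all tested genes were called; 7 members (21.9%) had an unadjusted p under 0.05, as did 26.1% of all tested genes, and the smallest adjusted p was 0.0896, for Sdf2l1 (-1.41 ± 0.40, iWAT minus eWAT). P4hb, Sdf2l1, Dnajc3 and Hspb8 were lower in every iWAT library than in every eWAT library, as were 19.5% of tested genes, and 0 members were higher, against 3.1%. This comparison turned on iWAT 1, the library most like eWAT. Without it, 1 member (Hsp90b1) was called higher in iWAT and 8 were called lower (P4hb, Dnajc3, Sdf2l1, Xbp1, Atf6, Ddit3, Trib3 and Ero1l), with 3315 of all tested genes called. Within the depots, eWAT 1 was below both other eWAT libraries in 24 of the 33 members, against 51.4% of all tested genes.

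Other genes of these pathways are given with the share called, which was 57.5% of all tested genes against iWAT. Of 39 tested further cytosolic chaperones and co-chaperones, 15 were higher and 9 lower in BAT than in iWAT (61.5% called), and 6 and 7 against eWAT (33.3%, where 33.7% of all tested genes were called). The small heat shock protein Cryab was at 13.2 to 21.1 FPKM in BAT against 105 to 131 FPKM in the 6 white fat libraries, including eWAT 1, a difference of -2.60 ± 0.23 from eWAT (limma). Of 34 further ER chaperones and oxidoreductases, 7 were higher and 9 lower against iWAT (47.1%), and 5 and 10 against eWAT (44.1%). They include Prdx4, an ER peroxiredoxin that oxidises isomerases alongside Ero1l, at 27.6 ± 6.07 FPKM in BAT and 97.4 ± 30.8 in eWAT (SD, n = 3), and Erp29, at 38.3 ± 6.45 and 138 ± 37.5 FPKM. Of 23 genes of ER-associated degradation, 7 were higher and 4 lower against iWAT (47.8%) and 4 and 1 against eWAT (21.7%). Syvn1 (HRD1), its ER ubiquitin ligase, was lower in BAT than in eWAT by -1.06 ± 0.25, and the membrane ubiquitin ligase Rnf5 was higher by 1.5 ± 0.28 (limma). The TRiC chaperonin and prefoldin, which fold actin and tubulin, had 3 higher and 4 lower of 13 against iWAT (53.8%) and 0 and 1 against eWAT (7.69%).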

How the data were processed

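The deposited values were read as FPKM. TopHat, Cufflinks and mm9 are named, without versions, per the submitters' processing notes; the table's header gives no unit, and annotation, filters and strand are not given in the sources used here. No per-sample column was left unused. Where a symbol was repeated (259 symbols, 728 lines), only its line of highest mean was used. Genes at 1 FPKM or more in at least 3 libraries (10374) were fitted as log2(FPKM + 1) with limma 3.58.1 in R 4.3.3, with an intensity trend, all 9 libraries together (6 residual degrees of freedom) and Benjamini-Hochberg adjustment. P-values measure the spread between these libraries, which may be technical.

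Members and lists were chosen with earlier results of these data known. Values in every library are given for members called or with a mean of at least 100 FPKM in a depot. Other pathway genes named were called, without overlap, with a higher mean of at least 5 FPKM and up to 2 per direction. The Krt5 ratios, the epithelial covariate, the 2-fold minimum and the heat shock core were chosen after seeing the data. Same-numbered iWAT and eWAT libraries deviated together (correlations 0.634, 0.534 and 0.165); this pairing comes from the values, not the labels. Depth was estimated from the steps between low FPKM values of genes with 1 transcript; 43.8% to 63.9% of the values used lay within 0.15 of a whole read, so it is approximate. On simulated data, log2 changes of 1 were recovered in 26% of genes for BAT against iWAT and 36% for BAT against eWAT. For iWAT against eWAT the share was 34%. Changes of 2 were recovered in 74%, 78% and 68%, in the same order. The adjusted p cutoff depends on how many genes change, so these rates describe the simulation and not the fits reported here. How often those fits miss a changed member was not measured. Protein sequences were not analysed here.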

Additional observations from a re-analysis of the deposited data

How the results depend on the processing

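Depth, few libraries and the unlike libraries eWAT 1 and iWAT 1 limit these results: 1 of 17 calls against iWAT (Dnajb9) and 3 of 7 against eWAT (Pdia4, P4hb and Dnajb9) held in every alternative. For BAT against iWAT (6 members higher, 11 lower, 5961 genes called in all), a mean of at least 5 FPKM gave 3783 genes. The depth covariate gave 2 higher, 0 lower and 1384 genes, and the epithelial covariate 2, 2 and 1410. Leaving out each library gave 2 to 7 higher, 8 to 13 lower and 4289 to 6829 genes. For BAT against eWAT (1, 6 and 3492), a mean of at least 5 FPKM gave 2244 genes, array weights, whose fit stopped before converging, 2 higher, 14 lower and 6625 genes, and the fit without eWAT 2 and 3 gave 2 lower and 1411 genes. Members higher were 2 with the depth covariate or with only both depots fitted, and 5 with the epithelial covariate. Leaving out each library gave 1 to 2 higher, 2 to 13 lower (2 without BAT 3, 3 without eWAT 2, 13 without eWAT 1) and 2141 to 4422 genes. For iWAT against eWAT (0, 0 and 180), genes called numbered 90 with a pseudocount of 0.1, 93 without a filter, 79 at a mean of at least 5 FPKM, 115 with median-ratio scaling, 29 with the depth covariate, 34 with the epithelial covariate, 45 with only both depots fitted and 1970 with array weights, which also called 6 members lower. Leaving out each library gave 0 to 1 higher, 0 to 8 lower and 15 to 3315 genes.

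Called differences between BAT and iWAT that turned positive with the epithelial covariate were Hspa1a 0.52, Hspa1b 0.65, Hsp90aa1 0.82, Hsf1 0.72, Dnajb1 0.92 and Hspa5 0.60, and with the depth covariate Hsp90aa1 0.15, Dnajb1 0.30 and Hspa5 0.14. Against eWAT with the epithelial covariate, Hspa1a turned to 0.41, and Dnajb1 and Canx, not called before, were called higher, at 0.82 and 0.87. Values called in neither fit turned too, such as Hspa1b 0.53, Hsp90aa1 0.72, Hsf1 0.69 and Hspa5 0.55. In all, 13 of 32 members changed sign against each white depot with the epithelial covariate, and 10 against iWAT and 8 against eWAT with the depth covariate. The cause was not tested. With the replicate number as a block, members numbered 6 higher and 12 lower against iWAT, 1 and 7 against eWAT, and 0 and 0 between the white depots; beyond the calls given above for Dnaja1, Trib3, Dnajc3 and Hspa1b it changed none.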

Other observations

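Of 21 tested genes of ER stress regulation outside the 33, 8 were higher and 4 lower in BAT than in iWAT (57.1% called, against 57.5% of all tested genes), and 4 and 4 than in eWAT (38.1%, against 33.7%). Ppp1r15a (GADD34) and Ppp1r15b (CReP), the subunits that direct phosphatase to eIF2α and so oppose PERK, were both higher in BAT than in eWAT. Ppp1r15a was at 11.9 ± 1.31 FPKM in BAT and 2.79 ± 0.530 in eWAT (SD, n = 3), a difference of 1.78 ± 0.31 (SE), and Ppp1r15b at 40.7 ± 1.99 and 14.4 ± 1.89 FPKM, a difference of 1.44 ± 0.20. Of 26 tested ATF4 targets, 8 were higher and 7 lower in BAT than in iWAT (57.7% called) and 5 and 7 than in eWAT (46.2%). Phgdh and Psat1, enzymes of serine synthesis, were among the lower ones: Phgdh was at 7.80 ± 2.27 FPKM in BAT and 199 ± 15.7 in eWAT, and Psat1 at 1.08 ± 0.609 and 50.8 ± 10.2 FPKM. Cebpb, which also drives adipocyte differentiation, was higher, at 1545 ± 487 FPKM in BAT and 249 ± 18.3 in eWAT.

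The mitochondrial chaperones and proteases that passed the test were all higher in BAT. Of 11 tested, 9 were higher and 0 lower in BAT than in iWAT (34.5% of all tested genes were called higher), with a median difference of 1.70 against 0.23 for all tested genes, and 7 were higher and 0 lower than in eWAT (20.2% of all tested genes), with a median of 1.38 against -0.02. Grpel1, the exchange factor of mitochondrial Hsp70, averaged 76.2 ± 3.12 FPKM in BAT, against 4.15 ± 4.64 FPKM in iWAT and 10.6 ± 1.59 FPKM in eWAT. Dnaja3, the Hsp40 of the same system, was at 123 ± 1.95 FPKM in BAT and 23.5 ± 2.94 in eWAT. In both genes eWAT 1, the deep eWAT library, lay with the other eWAT libraries, at 9.61 and 23.7 FPKM. None of the 7 pathway lists had a gene called between iWAT and eWAT by limma.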
